A study of Homo sapiens with 6 samples.

Results

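The receptors of the ERBB family and the growth factors that bind them were followed in RNA-seq libraries of WM164, an established human melanoma cell line that carries the BRAFV600E mutation. The members were taken by symbol from a list made with earlier results of these data known, and no threshold on their values was used. They were the 4 receptors EGFR, ERBB2, ERBB3 and ERBB4, the EGFR ligands EREG, AREG, HBEGF, TGFA and BTC, and the ERBB3 and ERBB4 ligand NRG1. These 10 genes were 10 of the 60504 rows of the count table. The cells had been stably transfected either with an empty vector (EV, 3 libraries) or with a vector that expresses the histone deacetylase HDAC8 (HDAC8, 3 libraries), and both groups were kept under hygromycin selection. Neither the labels nor the methods say whether each line was a pool or a single clone. The labels number the libraries of a group as biological replicates without saying whether they came from separate transfections or cultures, so that p-values measure the spread between these libraries only.

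ERBB receptors are tyrosine kinases at the cell surface. EGFR binds AREG, HBEGF, TGFA, EREG and BTC, of which HBEGF, EREG and BTC also bind ERBB4. The neuregulins NRG1 and NRG2 bind ERBB3 and ERBB4. ERBB2 has no ligand of its own and ERBB3 has little kinase activity, so that both act in dimers with the other receptors. The ligands are made as membrane-anchored precursors and are released by ADAM proteases. In melanoma, EGFR is mostly low in cells of the melanocytic state and is known for its rise in cells that tolerate BRAF inhibitors, whereas ERBB3 belongs to the neural crest and melanocyte lineage.

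The libraries held 34741083 to 42041462 estimated read counts. Mitochondrial transcripts took 9.66 to 12.8% of each EV library and 4.46 to 7.94% of each HDAC8 library, and this share moved with the group in every comparison given here. The first principal component took 54.7% of the variance and separated the groups, and the second, with 18%, set HDAC8 replicate 1 apart from HDAC8 replicate 2. The transcript of HDAC8 itself was 384, 404 and 479 normalized counts with EV and 485, 446 and 474 with HDAC8. The groups overlapped, and the difference on the log2 scale was 0.15 (SE 0.28, DESeq2 adjusted p = 0.856). The 95% interval ran from 0.75 to 1.63-fold, so that no rise was detected in the reads assigned to this gene. A rise above 1.63-fold in these reads lay outside the interval. Whether reads of the vector's own transcript could be assigned to the gene is not given in the sources used here. The melanocytic markers were present in both groups except TYRP1, which was at 62.9, 32.7 and 21.7 normalized counts in EV and at 0, 0 and 17.4 in HDAC8. Of the 10 markers, 6 were called lower (thresholds below) and none higher in HDAC8 cells. Over all genes, 5.44% were called lower and 5.57% higher. MLANA, a melanosomal antigen, went from 8665 to 303 normalized counts (-4.84 on the log2 scale, DESeq2 adjusted p = 2.36e-161), and TYR, the enzyme that starts melanin synthesis, from 17226 to 5688 (-1.60, DESeq2 adjusted p = 3.64e-28).

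The sequences in front of the start sites of the 4 called genes and of EREG, the silent neighbor of AREG, are shown so that shared and unlike motifs can be read beside the counts. Of the 10 members, 8 had a window in the RefSeq promoter table (GRCh38.p14), and the 250 bases before each start site are given on the gene's own strand. Capitals mark 4 motifs on either strand: the AP-1 site TGACTCA, the cAMP response element TGACGTCA, the TEAD site GGAATG and the GC box GGGCGG. The windows are AREG at chr4:74444886-74445135 (+), EREG at chr4:74364895-74365144 (+), HBEGF at chr5:140346604-140346853 (-), the first TGFA start at chr2:70553827-70554076 (-), the first EGFR start at chr7:55018767-55019016 (+), and a second EGFR start inside the gene at chr7:55109589-55109838 (+).
AREG: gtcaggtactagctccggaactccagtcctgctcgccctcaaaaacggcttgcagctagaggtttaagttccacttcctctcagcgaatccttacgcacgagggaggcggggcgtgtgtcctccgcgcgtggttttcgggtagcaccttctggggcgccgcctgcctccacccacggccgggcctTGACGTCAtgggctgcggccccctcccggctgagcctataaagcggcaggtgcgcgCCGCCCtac
EREG: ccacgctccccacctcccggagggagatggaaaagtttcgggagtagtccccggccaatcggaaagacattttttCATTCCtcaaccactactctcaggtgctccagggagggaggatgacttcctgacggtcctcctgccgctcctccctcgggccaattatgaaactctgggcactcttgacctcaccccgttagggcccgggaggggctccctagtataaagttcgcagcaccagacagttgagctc
HBEGF: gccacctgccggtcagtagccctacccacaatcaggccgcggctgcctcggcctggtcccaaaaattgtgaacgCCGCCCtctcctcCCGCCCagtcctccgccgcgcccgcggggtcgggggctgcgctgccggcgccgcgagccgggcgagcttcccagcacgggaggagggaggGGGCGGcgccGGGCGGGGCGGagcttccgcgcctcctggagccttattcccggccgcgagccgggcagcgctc
TGFA, first start: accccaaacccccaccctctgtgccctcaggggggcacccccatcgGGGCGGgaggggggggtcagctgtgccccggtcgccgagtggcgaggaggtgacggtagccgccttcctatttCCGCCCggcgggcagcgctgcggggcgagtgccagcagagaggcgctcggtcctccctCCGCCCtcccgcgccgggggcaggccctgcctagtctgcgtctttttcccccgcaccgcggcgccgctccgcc
EGFR, first start: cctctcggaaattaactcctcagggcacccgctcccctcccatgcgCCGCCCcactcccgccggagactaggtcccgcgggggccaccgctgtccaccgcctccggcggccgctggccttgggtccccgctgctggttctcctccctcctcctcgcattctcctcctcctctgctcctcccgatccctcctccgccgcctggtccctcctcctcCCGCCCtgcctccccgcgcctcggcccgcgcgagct
EGFR, second start: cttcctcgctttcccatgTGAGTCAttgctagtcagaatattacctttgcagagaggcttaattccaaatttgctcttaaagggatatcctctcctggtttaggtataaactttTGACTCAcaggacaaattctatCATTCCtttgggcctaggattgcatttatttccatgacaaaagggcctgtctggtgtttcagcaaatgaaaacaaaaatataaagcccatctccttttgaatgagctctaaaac

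The promoter of AREG held 1 cAMP response element, which began 65 bases before the start site, and 1 GC box. The element was found in 1.65% of 35116 windows of the same length. The window of EREG had neither, and held 1 TEAD site (11.9% of windows). HBEGF had 5 GC boxes, the first TGFA window 3 and the first EGFR window 2, and 42.6% of all windows held at least 1. Among uncalled members whose windows are not shown, ERBB4 had 1 GC box, and ERBB2 and BTC had none of the motifs searched. A second TGFA window in the table, at chr2:70553447-70553696 (-), held none of the motifs searched and is not shown. The second EGFR window stood apart from these in composition, with 38.8% GC against 73.6% in the first EGFR window and a median of 58% over all windows. It held 2 AP-1 sites, at 232 and 136 bases before its start (4.2% of windows had any), 1 TEAD site and 1 CATGTG E-box that overlaps the first AP-1 site (9.42% of windows). The counts are per gene and do not say which EGFR start was used. A match is a description of the letters only.

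Of the 10 members, 4 were called higher in HDAC8 cells and none lower. They were AREG, EGFR, HBEGF and TGFA, which make up 1 receptor and 3 of its ligands. A call needed an adjusted p under 0.05 over all genes and a log2 fold change of at least 0.58, and 5.57% of the 21021 genes with an adjusted p were called higher, 5.44% lower and 11% in either direction. Of the other members, ERBB2, ERBB3 and ERBB4 were tested without a call, NRG1 was too low for an adjusted p, and EREG and BTC had no count in any library. The median log2 fold change was 0.55 over the 8 members tested, against 0.00 over all 26162 genes tested. The values of the groups did not overlap in 5 of those 8 members, compared with 24% of all genes tested.

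**Figure D1:**
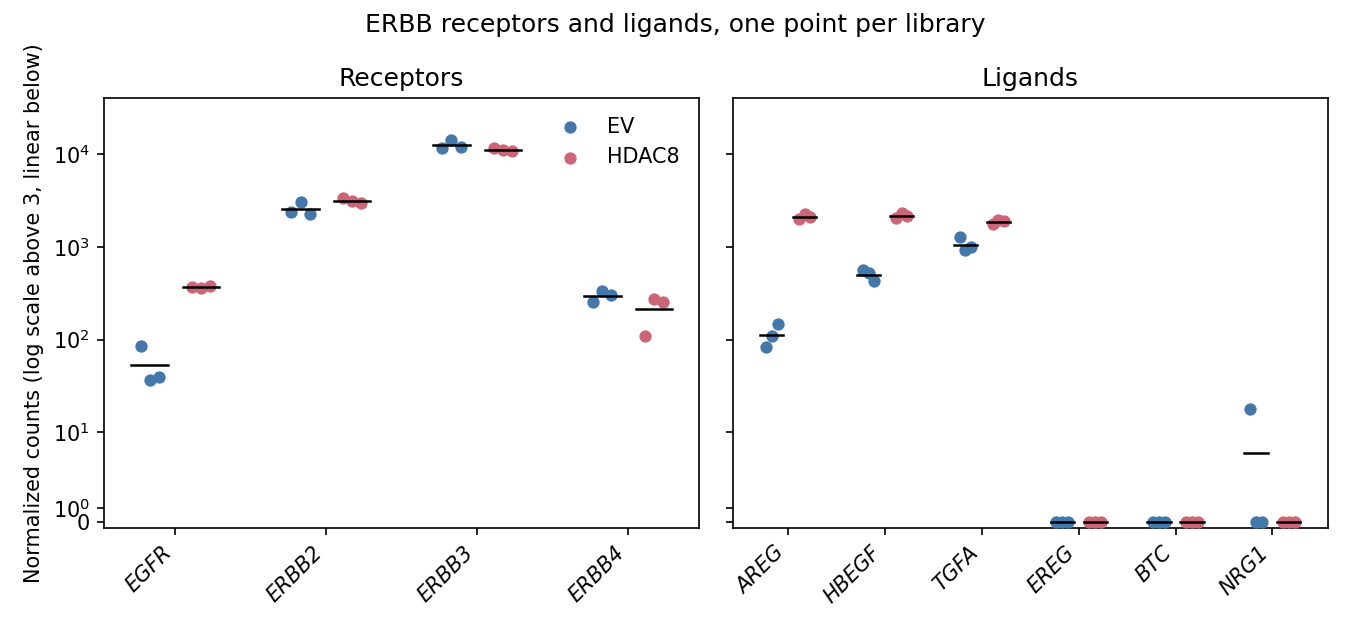
Normalized counts of the 10 members in each library, on an axis that is linear near 0 and logarithmic above, with 1 point per library, horizontal bars at the group means, and receptors and ligands in separate panels. The 3 HDAC8 libraries lie above the 3 EV libraries in EGFR, AREG, HBEGF and TGFA, and EREG and BTC lie at 0 in all 6.

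EGFR (ENSG00000146648, chr7:55019017-55211628, + strand, GRCh38), the receptor for most of the ligands studied here, was at 84.9, 36.4 and 39.4 normalized counts in EV cells and at 364, 359 and 376 in HDAC8 cells. The groups were far apart, and the EV libraries varied much more, with EV replicate 1 above the other two. Those values rest on 81, 39 and 40 counts in EV and on 345 to 426 in HDAC8. The mean went from 53.6 ± 27.2 to 366 ± 8.77 (SD, n = 3 each), which is a coefficient of variation of 50.7% and then of 2.4%. On the log2 scale the difference was 2.78 (SE 0.46, DESeq2 adjusted p = 7.84e-08), or 6.85-fold with a 95% interval of 3.67 to 12.8. Without EV replicate 1 it was 3.27, and the lowest value on leaving out a library was 2.56. The higher level was still modest. Per kb of exon, EGFR stood above 13.4% of the protein-coding genes tested in EV cells and above 27.3% in HDAC8 cells.

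ERBB2 (ENSG00000141736, chr17:39687914-39730426, + strand), the receptor without a ligand, was at 2362, 3067 and 2277 normalized counts in EV and at 3350.2, 3097 and 2969 in HDAC8. The second EV library reached into the HDAC8 range, and no difference was called (log2 fold change 0.29, SE 0.17, DESeq2 adjusted p = 0.322). The 95% interval ran from 0.97 to 1.55-fold. ERBB3 (ENSG00000065361, chr12:56076799-56103505, + strand), the receptor that lacks strong kinase activity, was at 11532, 14190.2 and 11801 normalized counts in EV and at 11447, 11131 and 10651 in HDAC8. All HDAC8 libraries lay just below the lowest EV library, but the difference was small beside the spread (log2 fold change -0.18, SE 0.13, DESeq2 adjusted p = 0.494, 95% interval 0.74 to 1.06-fold). ERBB4 (ENSG00000178568, chr2:211375717-212538841, - strand), which binds neuregulins and has its own kinase activity, was at 257, 334 and 299 normalized counts in EV and at 109, 271 and 253 in HDAC8. HDAC8 replicate 1 was the low library, replicate 2 lay within the EV range and replicate 3 just below it. On the log2 scale the difference was -0.49 (SE 0.43, DESeq2 adjusted p = 0.575), and -0.18 without HDAC8 replicate 1.

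Levels can be compared between genes only per length, so normalized counts were divided by the kb of exon of each gene. On this scale ERBB3 made up 79.6 ± 0.77% of the summed level of the 4 receptors in EV and 73.4 ± 0.077% in HDAC8 (SD, n = 3 each). ERBB2 made up 18.5 ± 0.87% and 23.6 ± 0.67%, ERBB4 1.70 ± 0.12% and 1.27 ± 0.56%, and EGFR 0.259 ± 0.15% and 1.78 ± 0.10%. EGFR therefore passed ERBB4 in every HDAC8 library and lay below it in every EV library, while both stayed small beside ERBB3. The sum of the receptors was 1343 ± 168 normalized counts per kb in EV and 1289 ± 46.8 in HDAC8, and these ranges overlapped. ERBB4 in HDAC8 rests on a low library, with a share of 0.626% in replicate 1 and 1.61 and 1.57% in the other two. No test was run on the shares.

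**Figure D2:**
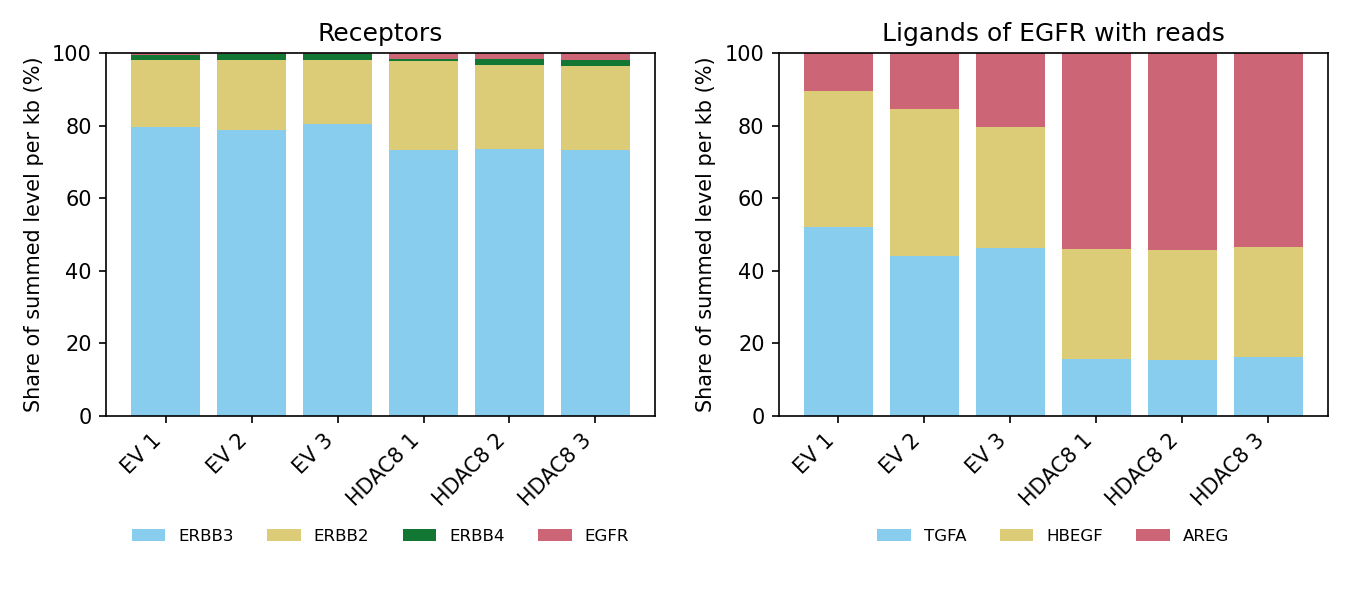
Share of each receptor in the summed receptor level (left) and of each EGFR ligand in the summed ligand level (right), in percent of normalized counts per kb of exon, with 1 stacked bar per library. ERBB3 holds most of the receptor level in all 6 libraries, and AREG goes from 10.4 to 20.5% of the ligand level in EV to 53.4 to 54.1% in HDAC8.

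AREG (ENSG00000109321, chr4:74445136-74455005, + strand), amphiregulin, a ligand that binds only EGFR, was at 83.9, 108 and 146 normalized counts in EV cells and at 1998, 2266 and 2077 in HDAC8 cells. It had the largest difference of the 7 members with an adjusted p. The mean rose from 113 ± 31.2 to 2114 ± 138 (SD, n = 3 each), a log2 difference of 4.23 (with SE 0.24 and DESeq2 adjusted p = 2.88e-64), or 18.7-fold with a 95% interval of 13.5 to 26.1. Of the 1065 genes called higher with a mean of at least 50 normalized counts, AREG was number 34 by fold change, HBEGF 191, EGFR 112 and TGFA 691. Per kb of exon, AREG stood above 38.9% of protein-coding genes tested in EV and above 94.6% in HDAC8.

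HBEGF (ENSG00000113070, chr5:140332843-140346603, - strand), a ligand of EGFR and ERBB4 that binds heparin, was at 555, 516 and 431 normalized counts in EV and at 2028, 2313 and 2150 in HDAC8. The groups were well separated, with means of 500.2 ± 63.5 and 2164 ± 143 (SD, n = 3 each). On the log2 scale the difference was 2.11 (SE 0.20, DESeq2 adjusted p = 6.16e-24), or 4.33-fold. TGFA (ENSG00000163235, chr2:70447284-70554193, - strand), the EGFR ligand with the highest level in EV cells, was at 1258, 925 and 986 normalized counts in EV and at 1752, 1950.0 and 1884 in HDAC8. It rose least of the 4, from 1056 ± 178 to 1862 ± 101 (SD, n = 3 each), a log2 difference of 0.82 (with SE 0.20 and DESeq2 adjusted p = 7.48e-04), or 1.76-fold with a 95% interval of 1.35 to 2.31. When the fold change itself was tested against the minimum of 0.58 on the log2 scale, TGFA was no longer called (DESeq2 adjusted p = 1), and the other 3 were.

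EREG, epiregulin (ENSG00000124882, chr4:74365145-74388749, + strand), and BTC, betacellulin (ENSG00000174808, chr4:74744759-74794523, - strand), had 0 counts in all 6 libraries. A count of 0 allows up to 3 counts, or 2.57 to 3.27 normalized counts, and covers counting error only. NRG1, neuregulin 1 (ENSG00000157168), had 17.8 normalized counts in EV replicate 1 and 0 in the other 5 libraries, so that no difference was detectable.

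The 3 detected ligands AREG, HBEGF and TGFA, with EGF left out, summed to 451 ± 36.3 normalized counts per kb in EV and to 2389 ± 151 in HDAC8 (SD, n = 3 each), a ratio of 5.3. With EGF, which was at 127.8 ± 11.5 and 148 ± 33.1 normalized counts per kb, the sums were 579 ± 32.2 and 2538 ± 118, a ratio of 4.39, in a sum added after the values were seen. The order of the 3 ligands turned on this scale. In EV cells TGFA made up 47.5 ± 4.1% of this sum, HBEGF 37.1 ± 3.6% and AREG 15.5 ± 5.1%, whereas in HDAC8 cells AREG made up 53.9 ± 0.37%, HBEGF 30.3 ± 0.13% and TGFA 15.9 ± 0.32%. The lower share of HBEGF depended on the length scaling, since without it the share went from 30.0 to 35.2%, and on leaving out EGF, with which it went from 28.9 to 28.5%. The first place of AREG in HDAC8 cells depended on the length scaling too. Without it, HBEGF at 2164 ± 143 and AREG at 2114 ± 138 normalized counts overlapped there. The sum of these 3 ligands over EGFR was 92.4, 187 and 175 in EV and 98.5, 113 and 100.4 in HDAC8, with overlapping ranges, as receptor and ligands were both higher.

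Over all members, the order of levels per kb in EV cells was ERBB3, ERBB2, TGFA, HBEGF, AREG, ERBB4 and EGFR, followed by NRG1, EREG and BTC. ERBB2 at 248.8 ± 42.1 and TGFA at 215 ± 36.1 normalized counts per kb overlapped in EV, as did the last 3 genes, and the other neighbors did not. In HDAC8 cells the order was AREG, ERBB3, HBEGF, TGFA, ERBB2, EGFR and ERBB4, then the 3 genes at 0, and no neighbors overlapped except those 3. AREG, at 1287 ± 84.2 normalized counts per kb, came before ERBB3, at 946 ± 34.2, in HDAC8 cells. In EV cells ERBB3 was at 1068 ± 125 and AREG at 68.6 ± 19.0. The first places in HDAC8 cells rest on the length used. With the length of the longest transcript in place of all exons, a choice made after the values were seen, ERBB3 at 1768 ± 64.0 came before AREG at 1713 ± 112 with overlapping ranges, and ERBB2 at 637 ± 39.4 came before TGFA at 452 ± 24.5. In EV cells the order was the same with either length, but with the longest transcript TGFA overlapped HBEGF and no longer ERBB2.

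**Figure D3:**
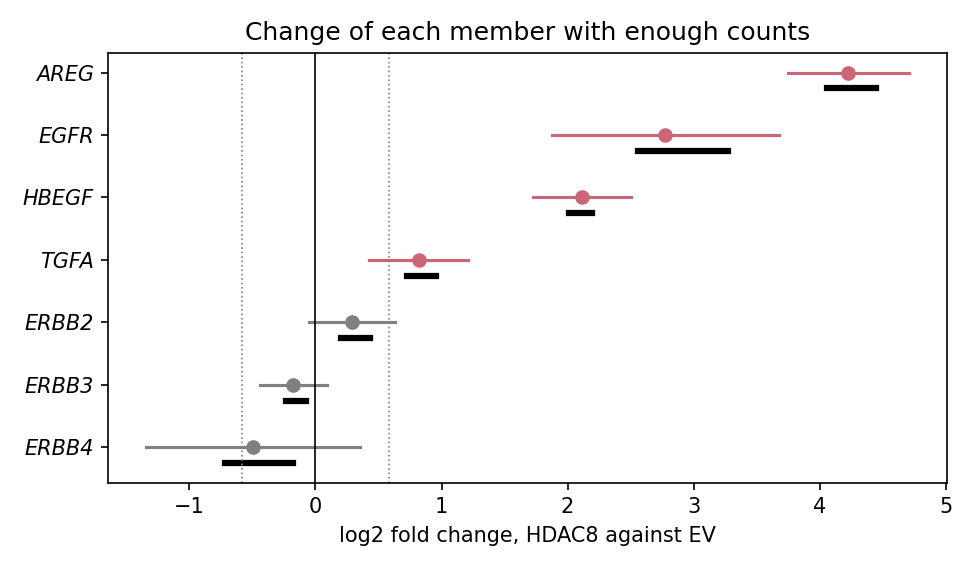
Log2 fold change (HDAC8 minus EV) of the members with an adjusted p, with thin lines for the 95% confidence interval, thick black bars for the range on leaving out 1 library at a time, dotted lines at the minimum size of a call, and color where called. AREG, EGFR and HBEGF lie wholly to the right of the line, the interval of TGFA crosses it, and those of ERBB2, ERBB3 and ERBB4 include 0.

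The remaining family ligands EGF, EPGN, NRG2, NRG3 and NRG4 gave 0 higher and 2 lower calls, beside 5.57% and 5.44% of all genes. NRG3, a ligand of ERBB4, fell from 1747, 1920 and 2102 normalized counts in EV cells to 584, 640.1 and 715 in HDAC8 cells (log2 fold change -1.57, SE 0.20, DESeq2 adjusted p = 3.03e-13). NRG2, which binds ERBB3 and ERBB4, fell from 454, 736 and 558 to 271, 196 and 224 (log2 fold change -1.34, SE 0.33, DESeq2 adjusted p = 7.85e-04). All libraries of EV lay above all of HDAC8 in both. EGF itself was at 975 ± 87.7 and 1129 ± 253 normalized counts (SD, n = 3 each, DESeq2 adjusted p = 0.692), NRG4 was low in both groups and EPGN was at 0 throughout. The median log2 fold change of the 4 tested was -0.62.

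Among 15 genes of ligand processing and shedding, 4 were called higher and 0 lower, with a median log2 fold change of 0.35. These calls stand beside 5.57% of all genes called higher and 5.44% lower. CD9, a tetraspanin that associates with the HBEGF precursor, was at 137, 93.4 and 66.0 normalized counts in EV and at 1188, 1602 and 1472 in HDAC8 (log2 fold change 3.85, DESeq2 adjusted p = 8.59e-36). ADAM19, a protease that cleaves neuregulins, rose from 6388 to 21960 normalized counts (1.78 on the log2 scale, DESeq2 adjusted p = 3.12e-34). The rise of FRMD8, which stabilizes the iRhom and ADAM17 complex, was 0.80 on the log2 scale (DESeq2 adjusted p = 7.12e-04), and that of TIMP3, which is an inhibitor of ADAM17 and not a part of the shedding machinery, was 0.68 (DESeq2 adjusted p = 9.27e-06). The main sheddase ADAM17 differed by 0.16 on the log2 scale (DESeq2 adjusted p = 0.612), and ADAM10 by 0.24 (DESeq2 adjusted p = 0.333).

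Genes that inhibit ERBB receptors or take part in their turnover gave calls in both directions. Of 24 inhibitors and turnover genes 23 were tested, with 1 called higher, 1 lower and a median log2 fold change of -0.04, and 11% of all genes were called in either direction. EV and HDAC8 values were fully apart in 10 of the 23 genes, against 24% of all genes tested. ERRFI1, an inhibitor of the ERBB kinases, rose from 3451 ± 115 to 7530.2 ± 1587 normalized counts (SD, n = 3 each, log2 fold change 1.13, DESeq2 adjusted p = 3.87e-09). PTPN1, a phosphatase that acts on EGFR, fell by 0.99 on the log2 scale (DESeq2 adjusted p = 6.33e-09). Among 28 adaptors and relays, 1 was called higher and 4 lower, with a median of -0.18. SHC2, an adaptor, rose (log2 fold change 2.18, DESeq2 adjusted p = 2.19e-05). The kinase SRC was at 213, 402 and 174 normalized counts in EV and at 9.41, 4.10 and 37.0 in HDAC8 (log2 fold change -3.98, DESeq2 adjusted p = 6.37e-07). PIK3R3, a regulatory subunit of PI3 kinase, fell by 1.58 (DESeq2 adjusted p = 6.24e-21), PLCG2, a phospholipase, by 0.90 (DESeq2 adjusted p = 0.00145) and NCK2, an adaptor named after its values were seen, by 0.78 (DESeq2 adjusted p = 0.00228).

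Immediate early genes and feedback genes of the ERK pathway moved in both directions, with 2 of 21 called higher, 3 lower and a median log2 fold change of 0.07. The shares over all genes were 5.57% called higher and 5.44% lower. DUSP5, a nuclear phosphatase of ERK, rose from 1022 ± 98.5 to 2169 ± 148 normalized counts (SD, n = 3 each, log2 fold change 1.09, DESeq2 adjusted p = 1.71e-07). FOSB, an AP-1 subunit, was called (log2 fold change 0.76, DESeq2 adjusted p = 0.0447), but not by edgeR (adjusted p = 0.0553) and not in 9 of 14 alternatives in all. The feedback inhibitor SPRY1 fell by 1.07 on the log2 scale (DESeq2 adjusted p = 2.32e-04), the transcription factor EGR3 by 0.91 (DESeq2 adjusted p = 1.60e-07) and the ETS factor ETV4, named after its values were seen, by 0.72 (DESeq2 adjusted p = 5.04e-04). DUSP6, a cytoplasmic phosphatase of ERK, differed by 0.30 on the log2 scale (SE 0.13, DESeq2 adjusted p = 0.143).

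Of 12 lineage and AP-1 factors with known ties to ERBB genes, 11 were tested, 2 were called higher and 2 lower, and the median log2 fold change was -0.20. Of all genes with an adjusted p, 5.57% were called higher and 5.44% lower. The AP-1 subunits JUN (log2 fold change 1.18, DESeq2 adjusted p = 4.62e-05) and FOSL1 (log2 fold change 1.14, DESeq2 adjusted p = 4.30e-09) rose. TFAP2C, an AP-2 factor, fell by 0.86 (DESeq2 adjusted p = 5.90e-05). FOXD3, a neural crest factor named after its values were seen, was at 33.6, 124 and 68.0 normalized counts in EV and at 0 in all HDAC8 libraries (DESeq2 adjusted p = 1.47e-06), which against a floor of 3 counts per library is at least 25.4-fold lower. SOX10 and MITF, the central factors of the melanocyte lineage, were not called (DESeq2 adjusted p = 0.211 and 0.544).

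**Figure D4:**
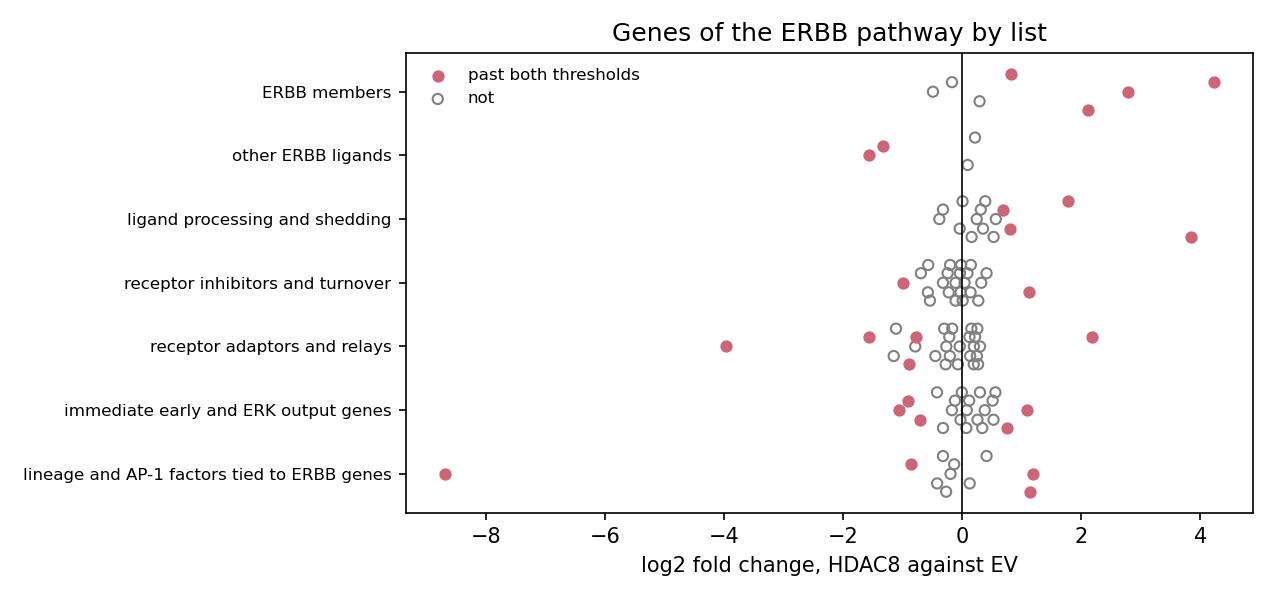
Log2 fold change (HDAC8 minus EV) of each tested gene in the lists of the ERBB pathway, with 1 point per gene, filled where past both thresholds. The called genes lie on both sides of 0 in the inhibitors, adaptors, ERK output genes and lineage factors, to the right in the shedding genes and to the left in the other ligands. FOXD3, the leftmost point, is drawn at its fitted value, which depends on the fit because all HDAC8 libraries were at 0.

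Markers of other cell types were counted beside these results, because EGFR and its ligands are high in keratinocytes, fibroblasts and epithelia. In bulk RNA, fewer cells of a type and less RNA per cell cannot be told apart. The calls below stand beside 5.57% of all genes called higher and 5.44% lower. The 12 keratinocyte markers summed to 306 to 429 normalized counts in EV and to 227 to 340 in HDAC8, IVL and KRT1 were at 0 in all libraries, and 1 of 8 with an adjusted p was called higher and 0 lower (KRT6A, not called by edgeR). The 12 fibroblast markers summed to 3106 to 3333 in EV and 4625 to 4790.3 in HDAC8, with DCN at 0. Of the 7 with an adjusted p, 3 were called higher and 0 lower. COL6A3, a collagen chain, led these with a log2 fold change of 3.07 (DESeq2 adjusted p = 1.82e-34), followed by FBLN1 at 2.39 (DESeq2 adjusted p = 3.55e-06) and PDGFRA at 1.16 (DESeq2 adjusted p = 0.0377), the latter not called by edgeR. The median of the fibroblast markers over the 10 tested was -1.04, with several low in both groups, and it was 1.16 over the 5 with a mean of at least 50. LUM, the highest of them in EV, went from 2462 to 1629 normalized counts without a call (log2 fold change -0.60, DESeq2 adjusted p = 0.0778). COL1A1, FAP and PDGFRB were also lower in every HDAC8 library than in any EV library, at low counts and without a call. The 10 simple epithelium markers summed to 2478 to 3035 in EV and 3631 to 4544 in HDAC8, with EPCAM and KRT19 at 0. Most of this sum was KRT18, which went from 1933 to 2804 normalized counts without a call. CLDN4 was called higher (log2 fold change 2.11, DESeq2 adjusted p = 0.00118) and ELF3 lower. The call of ELF3 rests on 40.9, 24.3 and 0 normalized counts in EV and 0 in all HDAC8 libraries, and edgeR did not make it. CDH1 and GRHL2, at low counts, were lower in every HDAC8 library than in any EV library, and KRT8 and KRT18 were higher, all without a call. The part of the fibroblast and epithelial markers in the rise of EGFR and its ligands was not tested.

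AREG lies in a cluster of EGFR ligands on chromosome 4, with EREG starting at -80.0 kb, EPGN at -136.7 kb and BTC 349.4 kb after it. Of these 4 ligands only AREG had any count. Of the 16 protein-coding genes that start within 1 Mb of AREG, 10 had no count in any library. Of the others, 4 were tested, 2 of them had an adjusted p, and none was called. MTHFD2L went from 266 to 294 normalized counts (DESeq2 adjusted p = 0.922), and CXCL8 from 21.3 to 3.97 (DESeq2 adjusted p = 0.436). Around EGFR, 0 of 7 neighbors with an adjusted p were called, and around TGFA 1 of 23 was, the adducin ADD2 (24.5 to 226 normalized counts, log2 fold change 3.21, DESeq2 adjusted p = 8.59e-05). Around HBEGF, 61 neighbors were tested and 47 had an adjusted p. Of these, 3 were called lower, NRG2 at -303.3 kb, PCDHGA3 and DND1, and none was higher. Over all genes with an adjusted p, 5.44% were called lower and 5.57% higher. The call of DND1 rests on low counts, with 0, 57.3 and 10.7 normalized counts in EV and 0 in all HDAC8 libraries.

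**Figure D5:**
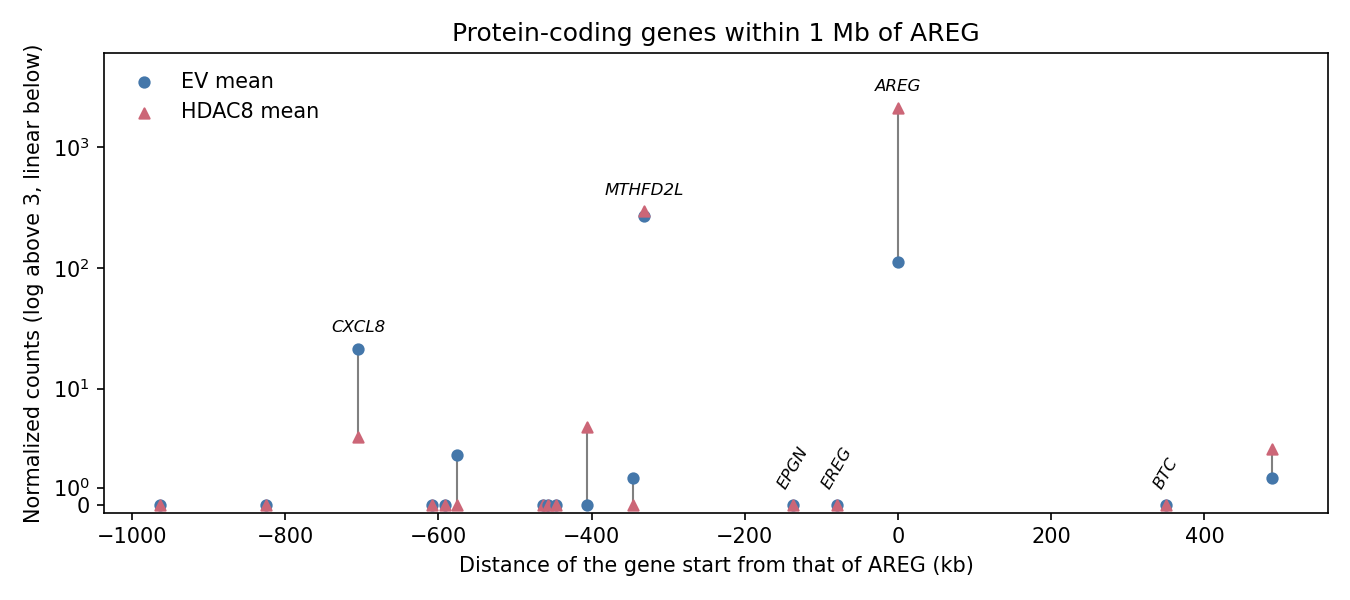
Mean normalized counts of the protein-coding genes within 1 Mb of AREG in EV and HDAC8 libraries, on an axis that is linear near 0 and logarithmic above, against the distance of each start site from that of AREG in kb. No gene but AREG was called, and EREG, EPGN and BTC lie at 0 in both.

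For each called member, the 3 genes with the most alike profile over the 6 libraries were found by the Euclidean distance between log2(normalized count + 1) values centered on their own mean. For AREG they were CTGF (distance 0.63), FLT1 (0.75) and PCDHGA12 (0.76). EGFR was nearest to AL365181.3 (0.80), DDX25 (0.81) and DSC2 (0.82), HBEGF to SIGLEC15 (0.28), PRSS23 (0.36) and SHROOM4 (0.37), and TGFA to NMD3 (0.23), TPBG (0.24) and ATL3 (0.24). CTGF, a secreted matrix protein, was at 200.3, 294 and 256 normalized counts in EV and at 3523, 3817 and 3802 in HDAC8, and FLT1, a receptor for VEGF, at 329, 284 and 336 and at 4379, 6918 and 7370.0. The groups were separate in both, which follows from choosing these genes by their likeness to AREG.

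Strand was not stated for the counting, so that reads from overlapping genes may not be told apart. AREG and HBEGF overlap no annotated gene in the table, and the antisense gene of EGFR and the intronic gene of TGFA had no count. ERBB2 overlaps PGAP3 and MIEN1 on the opposite strand, with 1162 and 2695 counts in all over the 6 libraries. ERBB3 overlaps AC034102.2 on its own strand, with 326 counts.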

How the data were processed

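RNA was sequenced as paired-end reads from 3 EV and 3 HDAC8 libraries of WM164 cells. The authors trimmed the reads with Trimmomatic, aligned them with STAR and deposited RSEM expected counts per gene. The genome build and annotation behind these counts are not given in the sources used here. The labels and the methods name different RNA kits. The members and the gene lists were chosen with earlier results of these data known, and the motifs and promoter windows after the counts were seen.

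Expected counts were rounded and genes with a total of at least 10 kept. DESeq2 1.42.0 (R 4.3.3, Wald test, its own size factors, Benjamini-Hochberg adjustment over all genes) gave the fold changes. Calls needed an adjusted p under 0.05 and a log2 fold change of at least 0.58. A normalized count is the count divided by the size factor, and 3 counts were taken as the floor. Totals of 34741083 to 42041462 counts set the precision, and intervals cover 95%. Coordinates and exon lengths came from GENCODE 44, which held 56558 of the identifiers, and promoters from RefSeq. Genes were named by rule: all members, HDAC8, of each other list at most 4 called genes by fold change with a mean of at least 50 normalized counts, the 3 most alike genes per called member, called neighbors within 1 Mb and overlapping genes. Where a list had no such called gene, the rule took the one with the highest mean, which was KRT10 of the keratinocyte markers. Further genes, such as ADAM17, ADAM10, DUSP6, SOX10, MITF, LUM, COL1A1, KRT6A, KRT18 and ELF3, were named outside this rule. Alternatives were edgeR 4.0.16, limma-voom 3.58.1, other size factors and filters, a replicate block, a test against the fold change minimum, other lengths, and each library left out. The methods were tested on simulated data. SK-MEL-28 cells were not analysed here.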

Additional observations from a re-analysis of the deposited data

How the results depend on the processing

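Under 14 alternatives, 4 members were called higher and 0 lower, except that 3 were called higher when the fold change minimum itself was the null. AREG had log2 fold changes of 4.06 to 4.45 (highest adjusted p 2.68e-08, DESeq2, edgeR or limma), HBEGF of 2.01 to 2.19 and EGFR of 2.56 to 3.27 (highest adjusted p 0.00138). No direction reversed. Over all genes, 1170 were called higher and 1143 lower. The test against the fold change minimum, stricter by its construction, called 292 and 291. On leaving out 1 library, 877 to 1218 genes were called higher and 746 (without EV replicate 3) to 1378 (without HDAC8 replicate 1) lower, and all 4 member calls were made each time. edgeR called 1080 higher and 1045 lower.

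With the replicate number as a block, 1075 genes were called higher and 1078 lower, and 4 members higher. The numbers did not pair the libraries: the correlations of same-numbered deviations were -0.027, -0.067 and 0.04, and 0 of 6 libraries correlated best with their own number. Of the other named genes, FOSB and PDGFRA lost their call in 9 of 14 alternatives each, and 18 in all, among them NRG2, ERRFI1, PTPN1, DUSP5, JUN, FRMD8, TIMP3, PLCG2, SPRY1, EGR3, TFAP2C and CLDN4, lost it when tested against the fold change minimum. Depth limits EREG, BTC and NRG1, for which up to 3 counts per library cannot be told from 0, and the EV level of EGFR, which rests on 39 to 81 counts. No level of protein, phosphorylation or shed ligand was measured in these files.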
